A study of Homo sapiens with 6 samples.

Results

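The genes described here are 9 members of the tight junction gene set: the cytoplasmic scaffolds TJP1 and TJP3, the membrane proteins OCLN and F11R, and the claudins CLDN1, CLDN3, CLDN4, CLDN7 and CLDN12. They were taken by symbol from the 58780 human gene IDs in the deposited tables. The list was drawn up with the auxin and DMSO results of these libraries in view, so the members' own levels and folds are given below as descriptions, without p-values. Tests are given for 78 of 93 other tight junction genes, those that passed the filter on low counts. That list too was chosen with earlier results of these data known.

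RNA-seq was run on HCT116, a colorectal carcinoma line of epithelial origin. In 3 libraries the cells had received auxin for 16 h, and in the other 3 they had received DMSO, the solvent, as the control. Auxin is a plant hormone that triggers degradation of a protein carrying a degron tag, and the labels name neither a tagged protein nor a clone. No auxin-treated cells without a degron were analysed here, so an action of auxin itself and loss of a protein cannot be told apart. The labels number 3 biological replicates in each group.

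Tight junctions are the uppermost contacts between epithelial cells and set how freely ions and solutes pass between them. Claudins form the strands of the junction, with some members sealing it and others forming pores, and occludin and the junctional adhesion molecules lie in the same membrane domain. ZO proteins, such as those encoded by TJP1 and TJP3, bind the claudin tails and tie the strands to actin. In intestinal epithelium the claudin makeup differs along the crypt axis, and claudin levels are often altered in colorectal tumours.

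The TJP1 result turns on a coding exon that some transcripts carry and others skip. The exon has 240 bases, or 80 codons, so skipping it keeps the reading frame. It is exon 20 of 28 in TJP1-202 and lies within TJP1 on the minus strand at chr15:29719777-29720016 (GRCh38, GENCODE release 29). It encodes the alpha domain, whose presence separates the known alpha-plus and alpha-minus forms of ZO-1. Its sequence is shown because the share of TJP1 RNA that contains it differed between the groups, and it is all in lower case because the whole exon is the part in question.
TJP1 alternative exon: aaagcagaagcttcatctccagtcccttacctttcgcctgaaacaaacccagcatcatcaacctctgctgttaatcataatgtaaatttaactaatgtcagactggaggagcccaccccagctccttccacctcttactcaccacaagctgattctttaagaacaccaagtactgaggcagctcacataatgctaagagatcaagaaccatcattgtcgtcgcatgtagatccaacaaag

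The libraries held between 234037969 and 625895062 expected counts, and replicate 1 was the deepest in both groups. All 5 epithelial markers checked (EPCAM, CDH1, KRT8, KRT18 and KRT19) were present, with a summed TPM of 1724 to 2374 in DMSO and 2207 to 2646 after auxin. TPM measures abundance per unit of transcript length, and its sum is fixed within a library. Of 5 markers of differentiated colon, only CDX2 reached a mean of 1 CPM (expected counts scaled to library size), and the summed TPM was 2.06 to 3.80 in DMSO and 2.77 to 4.74 after auxin. Of 5 mesenchymal markers 2 reached 1 CPM, with sums of 2.54 to 4.31 and 2.51 to 3.78. VIM stood at 1.08 to 1.53 TPM in DMSO and 1.89 to 2.27 after auxin, and COL1A1 at 1.28 to 2.61 and 0.54 to 1.34. None of 3 endothelial or 4 leukocyte markers reached 1 CPM, and their sums did not exceed 0.08 TPM in any library.

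CLDN7 and TJP3 were much lower after auxin, F11R was moderately lower, and OCLN and CLDN4 were slightly lower. TJP1, CLDN3 and CLDN12 were not called, and CLDN1 was almost absent from every library. Of the 9 members, all of which entered the test, 5 were called lower and 0 higher (edgeR quasi-likelihood test, Benjamini-Hochberg adjusted p under 0.05). Over all 19725 genes tested, 52.3% were called, 26.9% lower and 25.4% higher. These were 5311 genes lower and 5010 higher, which became 4416 and 6534 with upper-quartile scaling, where the median of all genes shifts up by 0.12, 6789 and 7005 with the replicate block, and 2966 and 970 with limma on log2(TPM + 1). Called lower by at least 2-fold were 2 members, CLDN7 and TJP3, and 13.3% of all genes. The median log2 fold change of the members was -0.27, against 0.02 for all tested genes. In the same 5 members the CPM of the auxin libraries lay wholly below that of the DMSO libraries, while 60.3% of all tested genes had groups that did not overlap in either direction. Because the members were picked from this contrast, these counts describe them and test nothing. In bulk RNA, fewer cells expressing a gene and less RNA per cell cannot be told apart.

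**Figure D1:**
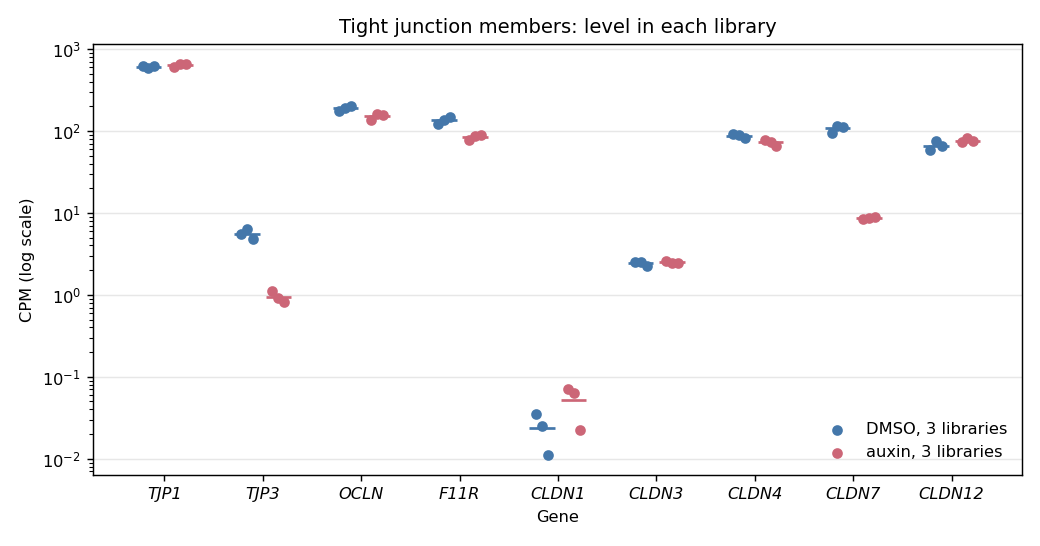
Level of each member in the 6 libraries, in CPM on a log axis. Points are libraries and short lines are group means (3 libraries each). CLDN7 fell from 95.2 to 116 CPM in DMSO to 8.51 to 8.95 CPM after auxin, TJP3 from 4.77 to 6.36 to 0.808 to 1.13 CPM, and the 2 groups overlap for TJP1, CLDN1, CLDN3 and CLDN12.

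Among the scaffolds, TJP1 (ENSG00000104067.16, chr15:29699367-29968865, minus strand) encodes ZO-1. Its level was 611, 591 and 622 CPM in DMSO replicates 1, 2 and 3, and 604, 648 and 663 CPM in the auxin replicates. The groups overlapped, and the log2 fold change was 0.07 (SE 0.06), without a call. With upper-quartile scaling TJP1 was called higher at 0.19, and on the log2(TPM + 1) scale the value was -0.088. TJP3 (ENSG00000105289.14, chr19:3708109-3750813, plus strand) encodes ZO-3, a ZO protein found mainly in epithelia. It stood at 5.59, 6.36 and 4.77 CPM in DMSO and at 1.13, 0.916 and 0.808 CPM after auxin. Every auxin library was below every DMSO library, and the mean was 5.83-fold lower (log2 fold change -2.54, SE 0.17). The gene next to TJP3 on the right, APBA3, lies 6 bases away and was also lower (log2 fold change -2.04, SE 0.39, edgeR adjusted p 0.00389). The part of reads running from one gene into the other was not tested.

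The membrane partners of the claudins were lower by smaller amounts. OCLN (ENSG00000197822.10, chr5:69492292-69558104, plus strand) encodes occludin, a membrane protein of the MARVEL family. It had 175.5, 190.5 and 199 CPM in DMSO and 137, 161 and 154 CPM after auxin, with no overlap, and a log2 fold change of -0.32 (SE 0.08). The OCLN call was lost with limma on log2(TPM + 1), where the value was -0.47. F11R (ENSG00000158769.17, chr1:160995211-161021348, minus strand) encodes JAM-A, an immunoglobulin-type adhesion molecule that recruits polarity proteins. It had 121, 136 and 147 CPM in DMSO and 77.2, 85.6 and 89.2 CPM after auxin (log2 fold change -0.68, SE 0.09). All 3 auxin libraries were below all DMSO libraries for both genes. F11R shares 23392 bases on the same strand with the gene AL591806.3, which was called lower too (log2 fold change -0.89, SE 0.14). Summed over both genes, the level was 1.64-fold lower after auxin.

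CLDN7 (ENSG00000181885.18, chr17:7259903-7263983, minus strand) encodes a claudin that binds EPCAM and is found along the basolateral membrane as well as in the junction. Its level was 95.2, 116 and 111 CPM in DMSO and 8.51, 8.65 and 8.95 CPM after auxin. The 3 auxin libraries agreed closely and lay far below the controls, with a mean 12.3-fold lower (log2 fold change -3.62, SE 0.09). The gene AC003688.1 shares 2187 bases with CLDN7 on the same strand but did not exceed 0.0789 CPM, and the sum of both genes was 12.2-fold lower. ELP5, on the opposite strand, overlaps CLDN7 by 38 bases and was lower by less (log2 fold change -1.29, SE 0.09).

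CLDN4 (ENSG00000189143.9, chr7:73799542-73832693, plus strand) encodes a sealing claudin and a receptor for an intestinal bacterial toxin. It had 90.7, 88.5 and 82.5 CPM in DMSO and 78.2, 73.1 and 65.5 CPM after auxin. The groups did not overlap, but the gap was narrow and the log2 fold change was -0.27 (SE 0.08). The call was lost without DMSO replicate 1, DMSO replicate 2, auxin replicate 2 or auxin replicate 3, where the log2 fold change ranged from -0.20 to -0.28, with upper-quartile scaling, where it was -0.15, and with limma on log2(TPM + 1), where it was -0.47. CLDN3 (ENSG00000165215.6, chr7:73768997-73770270, minus strand), a sealing claudin also bound by that toxin, lies 29272 bases from CLDN4. It had 2.54, 2.54 and 2.22 CPM in DMSO and 2.56, 2.42 and 2.47 CPM after auxin, with overlapping groups and a log2 fold change of 0.03 (SE 0.11). That value was -0.043 without DMSO replicate 3 and -0.086 on the log2(TPM + 1) scale.

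CLDN12 (ENSG00000157224.15, chr7:90383721-90513402, plus strand) encodes a claudin linked to calcium permeability of the intestine that lacks the usual PDZ-binding tail. It had 58.9, 74.5 and 65.6 CPM in DMSO and 72.5, 81.6 and 74.3 CPM after auxin, and its groups overlapped. Within each of the 3 same-numbered pairs the auxin library was higher. The log2 fold change was 0.20 (SE 0.09), without a call. It was called higher with the replicate number as a block (0.20), without DMSO replicate 2 (0.27) and with upper-quartile scaling (0.32), and was -0.0032 on the log2(TPM + 1) scale. CLDN1 (ENSG00000163347.5, chr3:190305701-190322475, minus strand), a sealing claudin of skin and gut, had 21, 7 and 3 counts in DMSO and 46, 15 and 5 after auxin, or at most 0.0712 CPM. Its fitted log2 fold change of 1.11 (SE 0.54) was not called, was called higher with the replicate block (1.11), and rests on these few counts.

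Per length, in TPM, the order of the members changed. In DMSO it ran TJP1 (97.0 to 143), CLDN7 (74.7 to 90.6), OCLN (62.1 to 84.6), CLDN4 (40.8 to 64.0), F11R (29.6 to 42.5), CLDN12 (19.2 to 24.9), TJP3 (4.29 to 7.89), CLDN3 (1.84 to 2.97) and CLDN1 (up to 0.01). The ranges of CLDN7 and OCLN, of OCLN and CLDN4, and of CLDN4 and F11R overlapped. After auxin CLDN7, at 5.44 to 7.06 TPM, stood sixth, below CLDN12 (20.0 to 24.3) and F11R (18.7 to 22.9), whose ranges overlapped, and TJP3, at 0.640 to 1.65 TPM, stood below CLDN3 (1.80 to 2.45).

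The makeup of claudin RNA differed accordingly. In all, 24 claudin genes were looked up. Of these, 17 stayed under 1 CPM in every library and 4 had no count in any. The summed TPM of the claudins was 188, 144 and 139 in DMSO and 79.7, 61.1 and 59.5 after auxin, a mean of 157 ± 26.9 against 66.8 ± 11.2 (SD, n = 3 each). Every auxin library was below every DMSO library, and replicate 1 was highest in both groups. CLDN7 supplied 51.5% ± 2.9 of that sum in the controls, against 9.27% ± 0.69 with auxin (SD, n = 3 each). CLDN4 went from 30.9% ± 2.8 to 51.9% ± 2.2 and became the most abundant claudin in TPM, although its own level was slightly lower. In CPM, which takes no account of length, CLDN4 and CLDN12 overlapped after auxin, at means of 72.3 and 76.15. The share of CLDN12 went from 13.9% ± 0.8 to 32.6% ± 1.9, and that of CLDN3 from 1.44% ± 0.13 to 3.10% ± 0.17. Without CLDN7 the sum was 76.7 ± 18.0 TPM in DMSO and 60.6 ± 10.5 TPM after auxin, and these ranges overlapped, although within each of the 3 same-numbered pairs the auxin library was lower (97.3 and 72.7, 68.1 and 55.7, and 64.6 and 53.5 TPM).

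**Figure D2:**
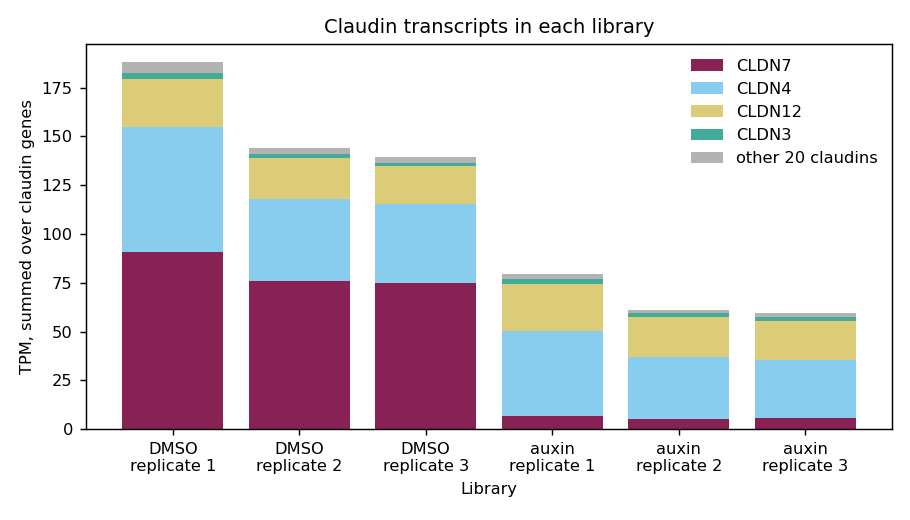
TPM summed over 24 claudin genes in each library (bars stacked by gene, each bar 1 library). CLDN7 makes up 48.2% to 53.6% of the bar in the 3 DMSO libraries and 8.86% to 10.1% in the 3 auxin libraries.

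TJP1 was not called in level, but its transcripts differed between the groups. GENCODE lists 12 TJP1 transcripts, of which 3 held at least 5% of the gene's expected counts in either group. TJP1-204, which skips the alternative exon shown above, held 72.6%, 75.0% and 73.4% in DMSO and 52.9%, 57.1% and 56.5% after auxin. TJP1-202, which contains the exon, was listed at 0 in the 3 DMSO libraries and held 19.3%, 17.3% and 20.3% after auxin. A count of 0 allows up to 0.00180% by counting error alone, and the deposited posterior SD of the TJP1-202 count in DMSO reached 289 counts, against gene counts of 166655 to 367891. TJP1-201, which also contains the exon, held 23.5%, 20.7% and 19.5% in DMSO and 23.9%, 21.1% and 17.6% after auxin. The groups thus overlapped for TJP1-201 and were apart for the other pair.

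Over the 5 TJP1 transcripts that span the exon, 2 contain it and 3 skip it. The share with the exon was 24.4%, 21.6% and 20.4% in DMSO and 44.9%, 40.2% and 39.5% after auxin, or 22.1% ± 2.1 against 41.6% ± 2.9 (SD, n = 3 each), a difference of 19.4 percentage points. Every auxin library was above every DMSO library. In CPM, transcripts with the exon went from 129 ± 12.5 to 254 ± 6.3 and those without it from 454 ± 17.7 to 358 ± 34.0 (SD, n = 3 each). In both directions the libraries of the groups did not overlap.

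The share of the first exon comes from the same transcript counts as that of the alternative exon, so it is no separate observation. The share of the same transcripts that start at the first exon region of TJP1-201 and TJP1-202 was 23.1% ± 1.4 in the controls, against 42.1% ± 2.5 with auxin (SD, n = 3 each). No annotated transcript joins the alternative exon to the first exon of TJP1-204, so a different start and a different inclusion of the exon cannot be told apart in these tables. Of TJP1-201 and TJP1-202, only TJP1-202 had shares apart between the groups. They also differ in length (7950 and 6747 bases) and in coding length (5244 and 5304 bases), and the part of these differences was not tested.

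**Figure D3:**
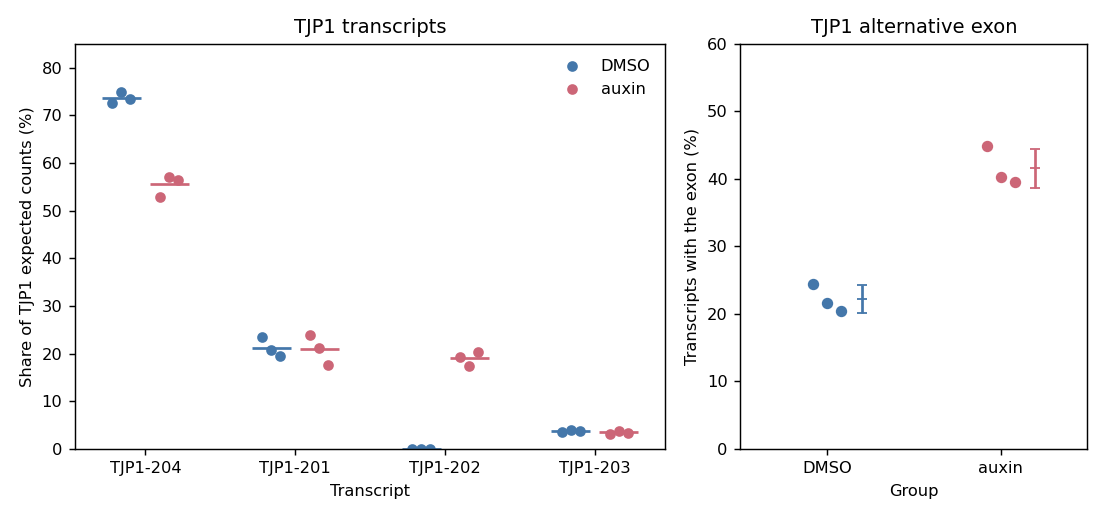
Left, share of TJP1 expected counts (%) held by the 3 main transcripts and TJP1-203, with 1 point per library and lines at group means. Right, share (%) of exon-spanning TJP1 transcripts that contain the alternative exon, with mean and SD (n = 3); DMSO points range from 20.4% to 24.4% and auxin points from 39.5% to 44.9%.

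Transcript shares of the other members were compared in the same way. A gene's profile was counted as separated when every DMSO library differed more from every auxin library than any 2 libraries of a group from each other. The difference was measured as the percentage points of the gene's counts that sit on other transcripts. By this measure 2 of the 7 members with more than 1 transcript and enough counts were separated, TJP1 at 19.3 points between group means and CLDN4 at 5.34 points, against 13.9% of 12978 genes. In CLDN4, the share of CLDN4-202 went from between 15.7% and 18.3% to between 21.3% and 22.8%, and that of the unspliced CLDN4-201 from 82.5% ± 1.4 to 77.2% ± 1.2 (SD, n = 3 each). The profile of TJP3 differed by 22.6 points between group means a larger distance than that of TJP1, but by up to 41.3 points between libraries of a group, so it was not counted as separated. Its main transcript TJP3-207 held 52.2%, 51.9% and 59.7% in DMSO and 42.7%, 38.4% and 20.8% after auxin, TJP3-202 held 12.9% to 25.9% over all libraries, and TJP3-201 reached 25.2% in auxin replicate 3 alone. Further TJP3 transcripts with a mean of at least 5% in a group were TJP3-203 (7.82% in DMSO, 12.2% after auxin), TJP3-204 (7.68% and 6.78%), TJP3-205 (1.08% and 5.40%), TJP3-206 (3.52% and 7.23%) and TJP3-209 (4.01% and 6.11%). The deposited posterior SD reached 11.7% of the gene's counts for TJP3-207, 9.24% for TJP3-201 and 9.51% for TJP3-205. After auxin TJP3 had only 728, 219 and 179 counts in replicates 1, 2 and 3.

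The profiles of OCLN, F11R, CLDN7 and CLDN12 were not separated by this measure, although single transcripts of F11R, CLDN7 and CLDN12 had shares that did not overlap between the groups. CLDN7-201 held 98.4% to 98.8% of CLDN7 in DMSO and 95.1% to 97.1% after auxin, so the low level after auxin was that of the main transcript. F11R-202 held 96.5% to 98.6% of F11R in all libraries, and the minor F11R-204 went from between 0.0972% and 0.230% to between 0.278% and 1.49%. The deposited posterior SD of F11R-204 reached 0.309% of the gene's counts, more than its share in any DMSO library. OCLN was split over OCLN-201 (40.5% to 59.5%), OCLN-202 (19.0% to 22.1%), OCLN-205 (8.56% to 29.9%) and OCLN-204 (9.80% to 10.8%), and replicate 1 of each group had the highest OCLN-201 and the lowest OCLN-205 share. CLDN12-201 held 73.6% to 75.3% of CLDN12 in DMSO and 75.9% to 81.5% after auxin, without overlap and 3.80 points apart in the means. CLDN12-203 held 22.2% to 24.6% in DMSO and 17.5% to 23.2% after auxin, with overlap. CLDN1 and CLDN3 each had counts on 1 transcript.

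The members differ in gene structure and base composition. By the transcript with the most counts, CLDN3 and CLDN4 have 1 exon, CLDN12 has 3, CLDN1 and CLDN7 have 4, OCLN has 9, F11R has 10, TJP3 has 21 and TJP1 has 28. The GC content is 38.1% for CLDN12, 39.9% for OCLN, 41.5% for CLDN1, 42.9% for TJP1, 47.6% for F11R, 56.0% for CLDN7, 60.5% for CLDN4, 63.5% for TJP3 and 69.2% for CLDN3. Across all genes the calls moved with this measure. Genes were ranked by GC content and divided into 4 classes of 4927. In the class with the highest GC content 50.7% were called lower (median log2 fold change -0.55), against 18.8%, 14.7% and 23.5% in the other 3 classes from low to high. CLDN3, CLDN4 and TJP3 fall in the highest class and CLDN7 in the one below it, with log2 fold changes of 0.03, -0.27, -2.54 and -3.62. The part of GC content in these values was not tested.

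The E-box CAGGTG is a site that SNAI and ZEB repressors are known to bind in promoters of epithelial genes. On the other strand it reads CACCTG. RefSeq start-site sequences (GRCh38.p14) matched 8 of the 9 members, and the 250 bases before each start were searched on both strands. The site occurs in 17.5% of 35116 such windows. Before the CLDN7 start at position 7262478 there were 4 copies, at 174, 135, 20 and 9 bases upstream, a number reached in 0.122% of windows. CLDN7 was looked at with its fall known, so this share describes the window and tests nothing. TJP3 had 1 copy, 7 bases before the start at 3721737, and the further annotated start of each of these genes had none. OCLN had 1 before each of its 2 starts, TJP1 had 1 before 1 of its 4 starts, and the windows of CLDN1, CLDN3, CLDN4 and CLDN12 had none. The last 30 bases before the CLDN7 and TJP3 starts are shown because these members had the largest falls. Capitals mark the E-box.
CLDN7, chr17:7262479-7262508, minus strand: tacatatactCAGGTGcgcccCACCTGtcc
TJP3, chr19:3721707-3721736, plus strand: gagacctggaggaggaagaggggCAGGTGc
A match is a description of the letters, and binding was not measured here. The CLDN7 stretch also lies within an exon of the longer transcript CLDN7-203, which held 0.261% to 0.415% of CLDN7 in DMSO and 0.432% to 1.64% after auxin.

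The other tight junction genes moved in both directions. Of 93 listed, 78 were tested, 21 rose, 31 fell and 26 were not called (edgeR, adjusted p under 0.05), which is 66.7% called, against 52.3% of all tested genes, with a median log2 fold change of -0.04. With upper-quartile scaling 29 rose and 27 fell, and with limma on log2(TPM + 1) 4 rose and 18 fell. Falls of at least 2-fold were seen in 18 of the 78, where the share over all tested genes was 13.3%. Rises of that size were seen in 3 of the 78, against 1292 of all 19725 tested genes. With the replicate block 27 rose and 35 fell. Of the 93, tested or not, 27 had a mean under 1 CPM, and every untested gene was among these 27. Over all 19725 tested genes it was 6877, a count without untested genes, so the shares are not like for like. Among tested genes alone, those of the list were less often under 1 CPM than all genes. The part of expression level in the share called was not tested. The counts by role below stand beside shares of 26.9% lower and 25.4% higher over all tested genes.

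**Figure D4:**
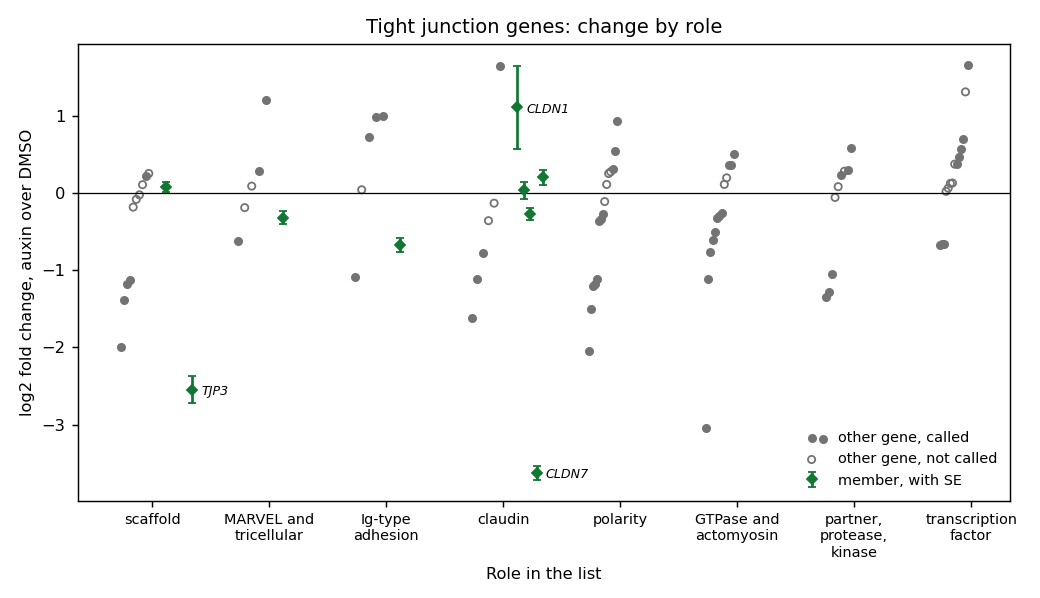
log2 fold change (auxin over DMSO) of the 9 members (diamonds, with SE) and of 78 other tested tight junction genes (circles; filled, called by edgeR at adjusted p under 0.05), by role. CLDN7 at -3.62 and TJP3 at -2.54 lie lower than the other genes of their roles, and each role holds called genes in both directions.

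Among the other scaffolds, 4 of the 10 tested fell and 1 rose. CGN encodes cingulin, which binds ZO-1 and actomyosin. It went from 10.96, 10.95 and 11.3 CPM to 3.34, 2.49 and 2.46 CPM, with SE 0.14 around a log2 value of -2.00 and an edgeR adjusted p of 3.3e-05. SYMPK, which encodes symplekin, a protein of the junction plaque and of the machinery for 3′ end cleavage, went from 94.0, 78.0 and 79.5 CPM to 35.4, 29.6 and 30.8 CPM. Its log2 fold change was -1.39 (SE 0.10).

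Among the other membrane proteins the calls were mixed. ILDR1, an angulin of contacts between 3 cells, rose from 2.57, 3.25 and 2.54 CPM to 6.15, 6.57 and 6.42 CPM, with SE 0.12 around a log2 value of 1.20 and an edgeR adjusted p of 0.000208. Of the 5 tricellular and MARVEL genes 2 rose and 1 fell. CLMP, an adhesion molecule of the CXADR family, rose by 0.72 on the log2 scale (SE 0.08), and of the 5 tested immunoglobulin-type genes 3 rose and 1 fell. Of 6 further claudins tested, 1 rose and 3 fell, all at a mean below 4 CPM. CLDN2, a cation pore claudin, was the one that rose, from a mean of 0.308 to 0.966 CPM (log2 fold change 1.64, SE 0.23, edgeR adjusted p 0.000854). CLDN15 fell from a mean of 2.42 to 1.12 CPM (log2 fold change -1.11, SE 0.29, edgeR adjusted p 0.0162). CLDN23 fell from 3.75 to 2.18 CPM (-0.78, SE 0.11), and CLDN34 fell from only 0.0492 to 0.0177 CPM (-1.615, SE 0.45).

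Of 15 polarity genes 8 fell and 3 rose. LLGL2 and LLGL1, which encode Lethal giant larvae proteins of the basolateral side, and PRKCZ, the atypical kinase of the PAR complex, were all lower in every auxin library. LLGL2 went from 45.9, 35.7 and 36.2 CPM to 10.3, 9.05 and 9.32 CPM (log2 fold change -2.04, SE 0.12). PRKCZ changed by -1.50 (SE 0.06) and LLGL1 by -1.20 (SE 0.17). The angiomotin family genes AMOTL1 and AMOTL2 rose by 0.93 (SE 0.06) and 0.54 (SE 0.13), with all auxin libraries above all DMSO libraries. AMOT, of the same family, fell (log2 fold change -0.27, SE 0.09, edgeR adjusted p 0.0368).

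MICALL2 had the largest fall among the other genes named here. It encodes JRAB, a RAB13 effector that carries occludin and claudins to the junction. It went from 13.6, 8.33 and 8.09 CPM to 1.69, 0.904 and 0.993 CPM (log2 fold change -3.05, SE 0.32, edgeR adjusted p 0.000208). Of the 13 GTPase and actomyosin genes 7 fell and 3 rose.

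Among 10 partners, proteases and kinases 4 fell and 3 rose. ST14, which encodes matriptase, a membrane protease of the epithelial barrier, changed by -1.35 (SE 0.08). Its inhibitor gene SPINT1 changed by -1.28 (SE 0.08), from 100.2, 88.6 and 89.8 CPM to 42.05, 36.2 and 36.0 CPM. YBX3, which encodes the ZO-1-associated factor ZONAB, rose by 0.57 (SE 0.06). EPCAM, the partner of claudin-7, rose by 0.29 (SE 0.08, edgeR adjusted p 0.0229), while CLDN7 was lower.

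Of 14 transcription factor genes tied to claudin genes 5 rose and 3 fell. Those that fell were GRHL1, GRHL2 and OVOL1, with log2 fold changes of -0.66 (SE 0.09), -0.68 (SE 0.09) and -0.66 (SE 0.08). SNAI2, an E-box repressor, was low throughout, at 0.551, 0.532 and 0.615 CPM in DMSO and 1.75, 1.91 and 1.69 CPM after auxin (log2 fold change 1.66, SE 0.13, edgeR adjusted p 6e-05). ZEB1, another E-box repressor, rose from 8.83, 8.86 and 8.87 CPM to 14.4, 14.2 and 14.3 CPM (log2 fold change 0.69, SE 0.07). CDX2, an intestinal activator, rose by 0.56 (SE 0.12). With limma on log2(TPM + 1) the calls of CLMP, ZEB1, YBX3, CDX2 and AMOTL2 were lost, at log2 values of 0.45, 0.43, 0.42, 0.29 and 0.37.

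The genes that flank the members also moved in both directions. Of 16 neighbours that are not members, 8 were called lower, 5 higher and 3 not called, where the shares over all tested genes were 26.9% lower and 25.4% higher. CTDNEP1 and SLC2A4, on either side of CLDN7, were both called lower, at -0.76 (SE 0.05) and -1.62 (SE 0.39), each less than CLDN7. SLC2A4 had a mean of only 0.289 CPM in DMSO. ABHD11, the gene 30130 bases left of CLDN3, changed by -1.18 (SE 0.08) while CLDN3 did not pass the test.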

How the data were processed

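Ribosomal RNA was removed and stranded libraries were read from both ends, per the labels' protocols. The submitters' processing notes name GRCh38, bcl2fastq 2.20, STAR and DESeq2. The counting tool and whether it used strand are not given in the sources used here. Per the file headers, the authors deposited for each gene and transcript an expected count (an estimated read number, not normalized), the TPM, and posterior mean counts with their SD. The 58780 gene IDs kept are those found in GENCODE release 29, which gave symbols and positions. Rows whose ID is not a gene of that release (746, at most 0.00111% of a library) were left out.

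Expected counts were rounded to whole numbers. Genes were filtered with filterByExpr, scaled with TMM factors and compared with edgeR 4.0.16 (glmQLFit and glmQLFTest, R 4.3.3), with calls at a Benjamini-Hochberg adjusted p under 0.05 over all genes. CPM uses the TMM-scaled library size, and SE is the log2 fold change over the root of F. The test was checked on simulated counts. Alternatives were RLE and upper-quartile factors, no filter, posterior mean counts, DESeq2 1.42.0, limma 3.58.1 on log2(TPM + 1) and log2(TPM + 0.1), a replicate block and left-out libraries. Depth was 234037969 to 625895062 counts. The limit given for a count of 0 covers counting error and nothing else.

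Same-numbered libraries of the groups deviated together from their group means (r across genes 0.861, 0.634 and 0.607 for numbers 1, 2 and 3), so by the rule used the numbers were taken to pair them. The main test, which gave the calls, SE and adjusted p values printed above, left this pairing out. Only the replicate block used it. Numbers 2 and 3 were not set apart from each other: r was 0.607 for DMSO 3 with auxin 2 and 0.398 for DMSO 2 with auxin 3. Named other genes are the 8 largest rises and 8 largest falls among those called with a mean of at least 1 CPM. APBA3, AMOT, EPCAM, CLDN2, CLDN15, CLDN23, CLDN34, GRHL1, GRHL2, OVOL1, CTDNEP1, SLC2A4 and ABHD11 were named after their values were seen. Members and lists were chosen with earlier results of these data known.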

Additional observations from a re-analysis of the deposited data

How the results depend on the processing

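CLDN7, TJP3 and F11R kept their direction and call in every setting run, with log2 fold changes of -3.70 to -3.50 for CLDN7. The settings reuse the libraries from which the members were picked, so a kept call describes the processing and tests nothing. The count of members called higher was 0 and became 2 with upper-quartile factors and 2 with the replicate block, and lay between 0 and 1 when libraries were left out. The block called CLDN1 and CLDN12 and changed no other member's call. With limma on TPM, members called lower were 3 at either pseudocount (OCLN and CLDN4 lost their call), other tight junction genes called higher were 4 and 4 and called lower 18 and 20, and all genes called were 970 and 1017 higher and 2966 and 3223 lower, for log2(TPM + 1) and log2(TPM + 0.1). TPM also turned the sign of TJP1 (-0.088 and -0.089), CLDN3 (-0.086 and -0.12) and CLDN12 (-0.0032 and -0.0032), and CLDN3 was -0.043 without DMSO replicate 3, with a range up to 0.064 over left-out libraries. The same TPM settings shifted the median of all genes by -0.14 and -0.15. The cause of the sign changes was not tested. Upper-quartile factors shifted the median of all genes by 0.12 (6534 genes called higher and 4416 lower, against 5010 and 5311), and TJP1 (0.19) and CLDN12 (0.32) were then called higher. CLDN12 was also called without DMSO replicate 2 (0.27). CLDN1 did not pass the low-count filter without replicate 1. As shares of TPM, TJP1-202 differed by 15.3 points and TJP1-204 by -14.5 points, the exon share by 20.2 points; leaving out libraries moved the exon share between 17.7 and 20.6 points. The exon share, the claudin shares and the 2-fold count of members, with their alternatives, were added after seeing the data. CLDN1 had at most 46 counts in a library.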

Other observations

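Transcript profiles of 12 of 68 other tight junction genes with enough counts were separated between the groups, against 13.9% of all genes. These genes were picked out after their values were seen. SYMPK had the greatest distance among them, with 70.0 percentage points of its counts on other transcripts, and at most 8.36 points between libraries of 1 group. MICALL2 differed by 45.2 points, with up to 26.8 points within a group, and both genes also fell in level. ELF3, an epithelial transcription factor gene whose level was not called (log2 fold change 0.02, SE 0.17), differed by 26.8 points, and PARD3, which encodes the polarity scaffold bound by JAM-A, by 14.8 points. As in TJP1, a level with no call stood beside different transcripts in ELF3.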
